A study of Mus musculus with 6 samples.

Results

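The proteasome subunit genes were examined in 3 liver libraries of Alkbh5-HKO mice and 3 of Alkbh5-flox mice. Each library is called a liver below. Members were the protein-coding rows of the gene table whose name starts with Psma to Psmg followed by a digit, leaving out the inducible catalytic genes Psmb8, Psmb9 and Psmb10. This gave 47 genes of the 41838 in the table, of which 41 had a mean of at least 1 FPKM over the 6 livers and were tested. FPKM are fragments scaled to gene length and library size. HKO livers came from mice in which Alkbh5, an RNA demethylase that removes N6-methyladenosine, was targeted, and the titles also call them Alkbh5-CKO. Flox livers carried the Alkbh5flox/flox allele. The labels do not spell out HKO or CKO, and they state no Cre driver, deleted exon, sex or feeding state. All mice had eaten normal chow for 9 weeks per the labels, and each library is 1 of the biological replicates of its group. Whether each came from its own mouse is not spelled out, so p-values set differences between the groups against the spread between these libraries.

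The proteasome is the barrel-shaped protease that destroys proteins tagged with ubiquitin, and it sets protein turnover in every cell, liver cells included. Its core particle stacks outer rings of alpha subunits, which gate the entrance, on inner rings of beta subunits, among which Psmb5, Psmb6 and Psmb7 carry the cutting sites. The regulatory particle binds the ends of the core. Its base holds a ring of ATPases that unfold substrates, and its lid holds the enzyme Psmd14, which cuts off ubiquitin. Activators such as the Psme proteins bind the core in place of the regulatory particle, and chaperones of the Psmg family help to build it. Under interferon, Psmb8, Psmb9 and Psmb10 take the places of Psmb5, Psmb6 and Psmb7, and Psme1 and Psme2 are made in larger amounts. The transcription factor NRF1, the product of Nfe2l1, drives the subunit genes when proteasome activity is short.

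Alkbh5 was at 0.508, 0.444 and 0.476 FPKM in HKO livers 1 to 3, against 17.8, 16.8 and 14.8 FPKM in flox livers 1 to 3. Every HKO liver lay below every flox liver (log2 fold change -3.56, SE 0.12, limma with Benjamini-Hochberg adjustment, adjusted p = 8.14e-05). Recovered depth was 14907384 to 17034754 reads per library. Hepatocyte markers were high in all livers, with Alb at a mean of 32430 FPKM over the 6. Of these markers 0 of 8 were called (median log2 -0.11, Apoa1 at -0.78), where 0.488% of all tested genes were. Every HKO liver lay above every flox liver for Alb (log2 0.35), and below for Apoa1 and Hnf4a (-0.55). Of all tested genes, 12.8% were separated with HKO above and 12.6% with HKO below. HKO library 1 stood apart from its group on the first principal component of all tested genes (38.6, against 15.7 and 4.52 in the other HKO libraries and -22.7 to -13.7 in flox).

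The promoters below are shown for the activators Psme1, Psme2 and Psme3, which differed most between the groups by log2 fold change within their class, and for 2 subunits that hold the NRF1-type motif. They run from 250 bases before to 50 after a RefSeq gene start (GRCm38.p6), 5′ to 3′ on the gene's strand. Capitals mark matches, on either strand, to TGACNNNGC, the core of the antioxidant response element, and to GAAANNGAA, from the core of the interferon-stimulated response element. Psme1 is at chr14:55578244-55578543 (plus strand), Psme2 at chr14:55591052-55591351 (minus), Psme3 at chr11:101315963-101316262 (plus), Psmb5 at chr14:54617946-54618245 (minus) and Psmc6 at chr14:45329574-45329873 (plus).
Psme1: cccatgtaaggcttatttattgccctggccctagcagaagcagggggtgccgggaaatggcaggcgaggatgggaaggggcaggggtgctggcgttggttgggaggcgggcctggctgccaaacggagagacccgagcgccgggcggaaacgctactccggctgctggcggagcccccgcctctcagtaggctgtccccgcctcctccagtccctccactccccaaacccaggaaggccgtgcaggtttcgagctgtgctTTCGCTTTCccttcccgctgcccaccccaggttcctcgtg
Psme2: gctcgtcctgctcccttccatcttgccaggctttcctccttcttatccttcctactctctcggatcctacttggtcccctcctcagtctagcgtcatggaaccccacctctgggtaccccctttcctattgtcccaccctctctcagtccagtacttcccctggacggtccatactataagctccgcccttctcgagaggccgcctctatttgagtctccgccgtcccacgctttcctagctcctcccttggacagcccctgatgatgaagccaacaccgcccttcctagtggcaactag
Psme3: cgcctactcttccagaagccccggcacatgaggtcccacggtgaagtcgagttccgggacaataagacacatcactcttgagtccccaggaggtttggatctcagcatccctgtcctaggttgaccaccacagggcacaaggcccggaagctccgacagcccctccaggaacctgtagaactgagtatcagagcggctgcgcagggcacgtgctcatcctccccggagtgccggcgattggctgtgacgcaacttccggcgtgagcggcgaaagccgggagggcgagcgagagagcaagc
Psmb5: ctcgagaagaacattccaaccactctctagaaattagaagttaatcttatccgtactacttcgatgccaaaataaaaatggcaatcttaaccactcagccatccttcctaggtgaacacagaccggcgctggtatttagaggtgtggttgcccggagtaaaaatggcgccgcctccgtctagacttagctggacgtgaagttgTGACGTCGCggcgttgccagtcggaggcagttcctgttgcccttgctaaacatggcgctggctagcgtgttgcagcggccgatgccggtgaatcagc
Psmc6: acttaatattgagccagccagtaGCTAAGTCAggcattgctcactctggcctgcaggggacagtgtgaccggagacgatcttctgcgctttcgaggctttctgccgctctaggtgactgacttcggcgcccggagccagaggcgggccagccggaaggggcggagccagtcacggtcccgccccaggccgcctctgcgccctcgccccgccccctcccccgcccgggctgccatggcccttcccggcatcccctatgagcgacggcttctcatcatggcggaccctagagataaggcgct

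Promoters were found for 39 of the 47 genes, in 42 windows. TGACNNNGC was present in 6 of these windows (14.3%), in Psmb5, Psmb6, Psmc6, Psmd9, Psmd12 and Psme4, and in 12.4% of all 32851 promoters. GAAANNGAA was present in 7 (16.7%), in Psmb3, Psmb4, Psmc2, Psmd4, Psmd9, Psme1 and Psmg4, and in 8.56% of all. Its length was set after matches to a version longer by 1 base had been seen. The STAT-binding motif TTCNNNGAA was present in 2 (4.76%), in Psmd2 and Psmg1, and in 8.3% of all. The matches printed do not overlap each other, and these are matches of letters and not sites of binding. Of the 6 genes with TGACNNNGC, those printed were Psmb5 (log2 fold change 0.29) and Psmc6 (0.36). Psmb6 (0.05) and Psme4 (0.02) were near 0, and Psmd9 (-0.24) and Psmd12 (-0.17) were below it.

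Proteasome transcripts were abundant, and no member passed the test between the groups. Of the 41 tested members 0 were called by limma, where 0.488% of all 10453 tested genes were called at a Benjamini-Hochberg adjusted p under 0.05, 0.268% as higher and 0.22% as lower. Voom on recovered reads also called 0, against 1.15% of all genes. At an unadjusted p under 0.05, 8 members (19.5%) had a higher mean and 1 (2.44%) a lower mean in HKO, against 8.57% and 8.44% of all genes. The members' log2 fold changes (HKO over flox, of FPKM + 1) ran from -0.48 to 0.64, with a median of 0.19, against a median of -0.02 over all tested genes. Of the members 31 (75.6%) were above 0 and 10 below, where 48.0% of all genes were above. In 16 members (39.0%) every HKO liver was above every flox liver and in 1 (2.44%) every HKO liver was below, against 12.8% and 12.6% of all genes. The coefficient of variation within a group had a median of 12.4% in HKO and 9.1% in flox for members, and 17.7% and 13.4% for all tested genes. The standard errors of the members' log2 fold changes had a median of 0.15.

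**Figure D1:**
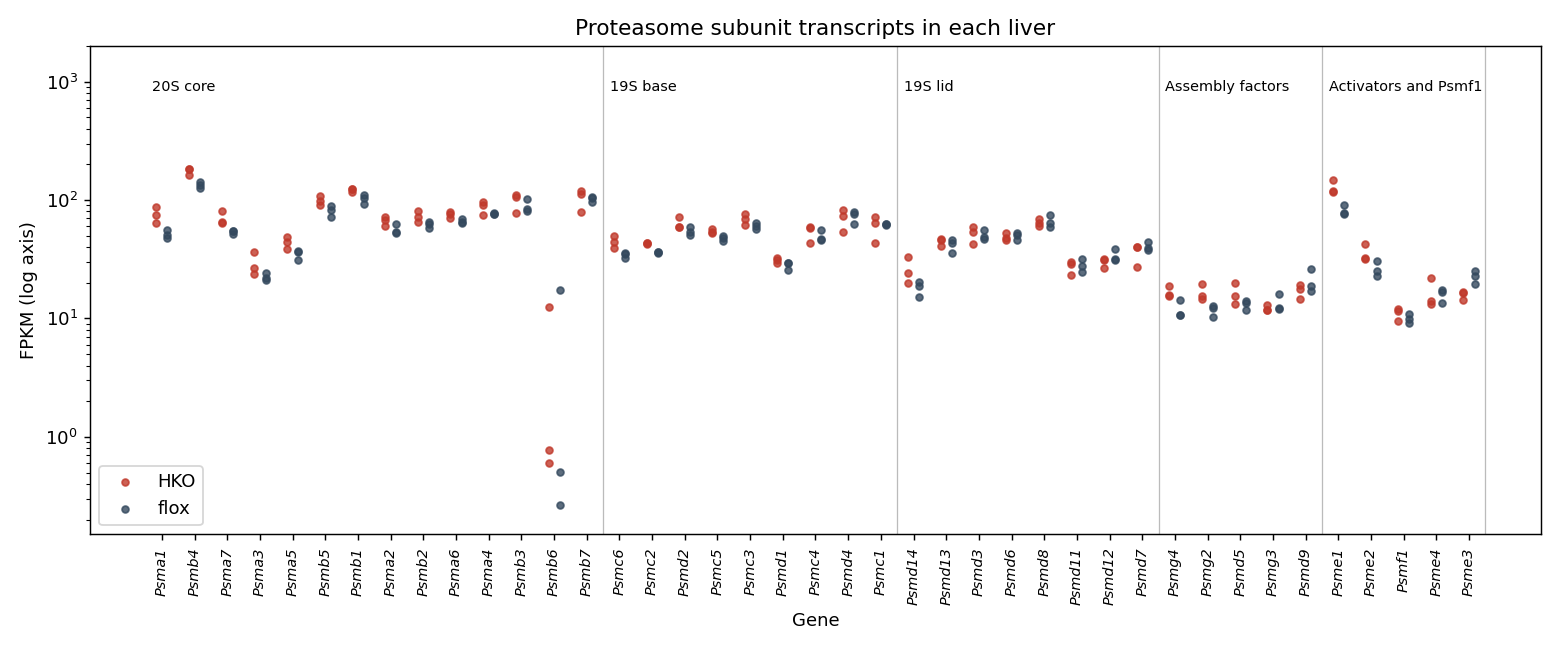
FPKM (log axis) of each of the 41 tested members in every liver, HKO red and flox dark blue, 1 point a library, ordered by class and then by log2 fold change. Core, base and lid members other than Psmb6 lie between 15.3 and 184 FPKM, while Psmb6 spreads from 0.265 to 17.3 FPKM.

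**Figure D2:**
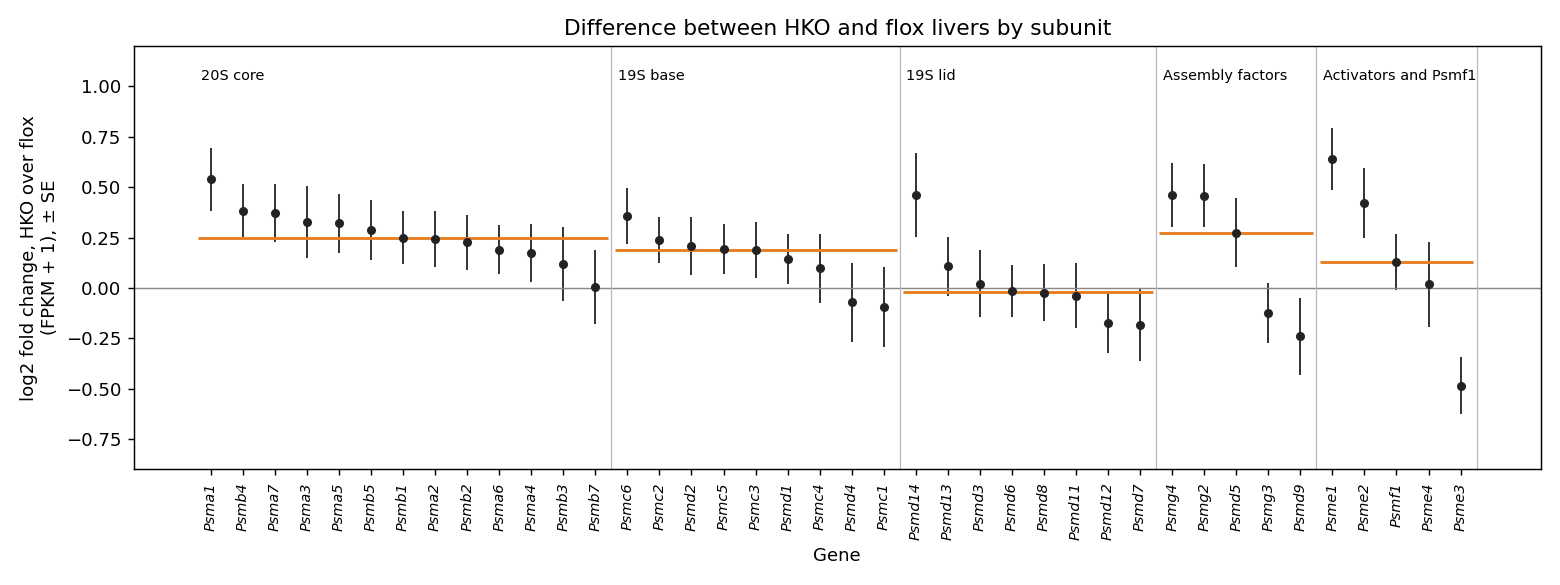
Log2 fold change of FPKM + 1, HKO over flox, with its SE, for the tested members other than Psmb6, by class. Orange lines are class medians, and those of the core, base, assembly factors and activators lie above 0 while that of the lid lies near it.

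The core particle had a positive log2 fold change in all 14 tested members, with a median of 0.25, though none passed limma (adjusted p 0.157 to 0.990). Of these, Psmb6 (0.05) and Psmb7 (0.01) were near 0 and turned negative under some alternatives, Psmb6 to -0.96 without HKO liver 1 and -0.06 with a pseudocount of 5, and Psmb7 to -0.11 without HKO liver 3. In 8 of the 14 the groups did not overlap, all with HKO above, and 3 had a higher mean in HKO at an unadjusted p under 0.05. These are 57.1% and 21.4% of the core, against 12.8% and 8.57% of all tested genes in that direction. The 7 tested alpha subunits had a median of 0.32 (0.17 to 0.54).

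Among the alpha subunits, Psma1 differed most. It was at 86.9, 74.8 and 64.5 FPKM in HKO livers 1 to 3, against 50.8, 47.6 and 55.5 in flox livers 1 to 3. Every HKO value lay above every flox value (log2 0.54, SE 0.16, limma adjusted p = 0.157). Psma7 (log2 0.37), Psma5 (0.32) and Psma6 (0.19) also did not overlap. Psma4, the most abundant alpha subunit per length, was at 74.3, 96.0 and 89.97 in HKO, against 75.8, 77.4 and 76.2 in flox. HKO liver 1 was the lowest of all 6 for this gene. Psma3, the least abundant, was at 36.1, 26.5 and 23.7 in HKO, against 21.9, 20.9 and 24.4 in flox, and here HKO liver 1 was the highest. Mean levels within the ring differed 3.19-fold from the highest to the lowest.

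The catalytic subunits Psmb5, Psmb6 and Psmb7 had log2 fold changes of 0.29, 0.05 and 0.01. Psmb5, which cuts after hydrophobic residues, was at 108.9, 90.2 and 97.2 FPKM in HKO livers 1 to 3, against 71.2, 88.9 and 82.2 in flox livers 1 to 3. The groups did not overlap, by a narrow margin (log2 0.29, SE 0.15, limma adjusted p = 0.370). Psmb7, which cuts after basic residues, was at 78.9, 113 and 120 in HKO, against 95.7, 107 and 104 in flox. Its groups overlapped, with HKO liver 1 the lowest of all 6 (log2 0.01, adjusted p = 0.990).

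Psmb6, which cuts after acidic residues, was listed at 12.5, 0.605 and 0.772 FPKM in HKO livers 1 to 3, against 0.508, 17.3 and 0.265 in flox livers 1 to 3. These values rest on 415, 23 and 24 recovered reads in HKO and 17, 499 and 9 in flox, where Psmb5 had 1001 to 1519. The high libraries fell in both groups, so the groups overlapped (log2 0.05, SE 1.22). A spread of over 10-fold, or a lowest liver at 0, was seen in 1 of the 41 tested members, Psmb6, and in 2.5% of all tested genes. Other genes that all cells use were listed in the same way. Gapdh was at 2.18, 4.08 and 58.7 in HKO, against 3.91, 2.79 and 3.82 in flox, and Eif5a at 0.619, 0.852 and 0.727 in HKO, against 1.87, 31.7 and 24.3 in flox. The level of Psmb6 is therefore uncertain, and its cause was not tested.

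The 4 other beta subunits, which build the inner rings without cutting, included the most abundant member per length, Psmb4. Psmb4 was at 181, 184 and 163 FPKM in HKO, against 143, 134 and 127 in flox, with every HKO liver above every flox liver (log2 0.38, SE 0.13, limma adjusted p = 0.212). Psmb2 was at 65.82, 80.5 and 72.5 in HKO, against 65.81, 57.9 and 62.6 in flox, and HKO liver 1 and flox liver 1 all but touched. Psmb3 was at 77.1, 106 and 110 in HKO, against 84.4, 81.1 and 102 in flox, with HKO liver 1 the lowest.

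The base of the regulatory particle had 7 of its 9 tested members above 0 and a median log2 of 0.19, and 4 of the 9 did not overlap, all with HKO above. Of all tested genes, 48.0% were above 0 and 12.8% had every HKO liver above every flox liver. Psmc2, an ATPase, was very even within each group, at 43.5, 43.0 and 42.7 FPKM in HKO and 36.6, 36.6 and 35.8 in flox (log2 0.24, SE 0.12, limma adjusted p = 0.345). It was chosen after its values were seen. Psmc6, the ATPase with the largest log2 fold change, was at 49.8, 44.0 and 39.1 in HKO, against 32.5, 34.8 and 35.5 in flox (log2 0.36, adjusted p = 0.250). In both genes the groups did not overlap. Psmc3, the most abundant ATPase, was at 61.5, 75.9 and 68.9 in HKO, against 63.5, 60.1 and 56.8 in flox. Psmc1 was at 43.2, 63.6 and 72.3 in HKO, against 63.1, 62.5 and 61.7 in flox. Its HKO livers lay on both sides of the flox livers, with HKO liver 1 low, and without that liver its log2 fold change was 0.12 in place of -0.10. The 6 ATPases, present in equal number in the ring, differed 1.64-fold in mean level from the highest to the lowest.

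Of the other base subunits, Psmd2 is a large scaffold and Psmd4 a receptor for ubiquitin. Psmd2 was at 71.3, 58.7 and 59.3 FPKM in HKO, against 59.3, 53.2 and 50.4 in flox, and overlapped. Psmd4 was at 53.6, 82.1 and 73.5 in HKO, against 76.1, 62.4 and 79.3 in flox, with HKO liver 1 the lowest of all 6. Psmd1, also a scaffold and the least abundant, was at 32.2, 29.6 and 31.3 in HKO, against 29.1, 29.1 and 25.8 in flox, without overlap (log2 0.14, adjusted p = 0.584, and a log2 of 0.09 without flox liver 3).

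The lid had a median log2 fold change of -0.02 over its 8 tested members, 3 above 0 and 5 below, and no member free of overlap. Of all tested genes, 12.8% had every HKO liver above every flox liver and 12.6% every HKO liver below. Psmd14, the enzyme that removes ubiquitin chains, was at 33.1, 24.1 and 19.9 FPKM in HKO, against 18.8, 20.3 and 15.3 in flox. It had the largest log2 fold change of the lid (0.46, SE 0.21, limma adjusted p = 0.316, and a log2 of 0.27 without HKO liver 1), and HKO liver 3 lay within the flox range. Psmd7, its partner in the lid, was at 27.4, 40.12 and 40.10 in HKO, against 44.2, 37.7 and 39.0 in flox. HKO liver 1 was again the lowest (log2 -0.18, and -0.0043 without that liver). Psmd8, the most abundant lid member, was at 60.2, 64.0 and 69.6 in HKO, against 74.0, 64.1 and 59.3 in flox. The difference between the core and the lid was not tested.

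HKO liver 1 was often at an extreme. Of the 31 tested members of core, base and lid it held the highest value of all 6 livers in 11 (35.5%) and the lowest in 10 (32.3%). It was highest in 27.6% and lowest in 29.4% of all tested genes, so these shares are near those of the whole table. The same liver had the highest Psma1, Psmb5, Psmc6, Psmd2 and Psmd14 and the lowest Psmb7, Psmc1, Psmd3, Psmd4 and Psmd7. As the median over members relative to the flox mean of each gene, the lid was at -0.19, 0.05 and 0.06 in HKO livers 1 to 3 and at 0.14, -0.05 and -0.11 in flox livers 1 to 3, while the core was at 0.26, 0.30 and 0.23 in HKO and -0.02, -0.01 and 0.02 in flox. Without HKO liver 1 the core median was 0.28. Pearson correlations between subunits over the 6 livers had a median of 0.53 within the core (91 pairs), 0.41 within the base (36), 0.30 within the lid (28), and 0.05 between core and lid (112). These points share libraries, depth and genotype, and the values are a description.

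**Figure D3:**
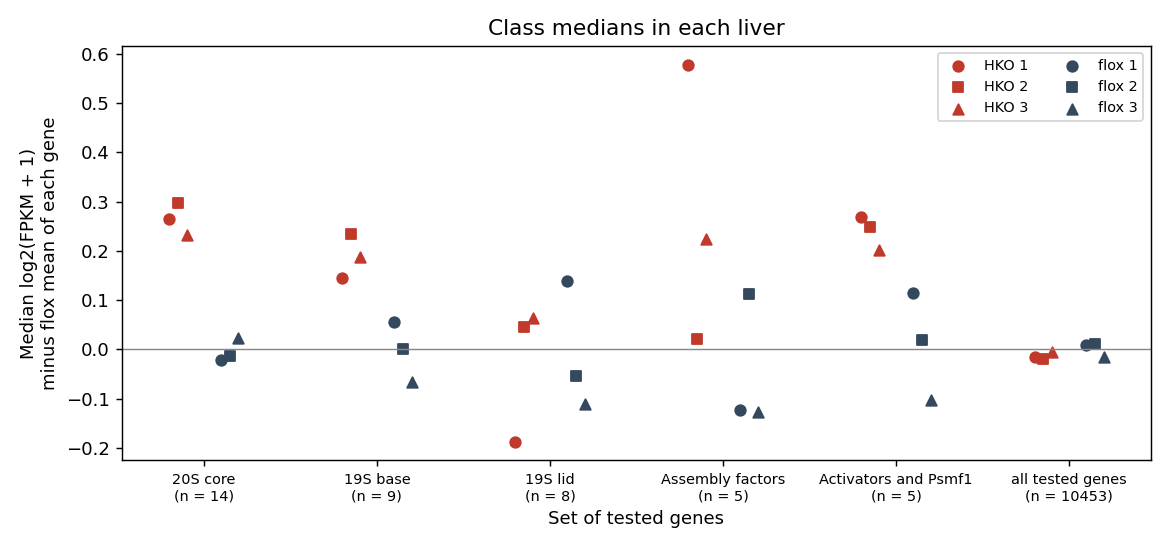
Median over each class of log2(FPKM + 1) minus the flox mean of each gene, in each liver (HKO red, flox dark blue, libraries 1 to 3 as circle, square and triangle). The HKO livers lie above the flox livers for the core, the base and the activators. HKO liver 1 is the lowest for the lid and the highest for the assembly factors.

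Assembly factors lay below every tested core, base and lid member other than Psmb6, at 12.8 to 18.97 FPKM in mean over all livers for the 5 tested. Psmg4, a chaperone of the alpha ring, was at 18.7, 15.6 and 15.6 FPKM in HKO, against 10.6, 14.3 and 10.7 in flox, without overlap (log2 0.46, SE 0.16, limma adjusted p = 0.210). Psmg2, which also helps to build that ring, did not overlap either, at 19.6, 15.4 and 14.5 in HKO, against 10.3, 12.7 and 12.2 in flox (log2 0.46, adjusted p = 0.210). Psmg2 was chosen after its values were seen. Psmg3, which works as a pair with Psmg4, was at 11.8, 12.98 and 11.7 in HKO, against 12.2, 16.1 and 12.04 in flox. Psmd9, a chaperone of the base, was at 14.7, 17.8 and 19.2 in HKO, against 26.2, 18.97 and 16.98 in flox, with flox liver 1 high. Psmg1 and Psmd10 were under the filter. Psmg1 was listed at 0.254, 1.63 and 0.169 in HKO, against 0, 0 and 2.88 in flox, and Psmd10 at 0.0429, 0.0749 and 0.412 in HKO, against 1.11, 0.148 and 0.0419 in flox. The class median was 0.27, and with no filter, when those genes and their small differences enter, it was -0.003.

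The activators Psme1 and Psme2 had higher values in HKO livers and Psme3 lower ones, and none passed the test. Psme1, which forms the interferon-inducible activator ring with Psme2, was at 118, 148 and 116 FPKM in HKO livers 1 to 3, against 77.2, 76.0 and 89.97 in flox livers 1 to 3. It had the largest log2 fold change of the 41 tested members, 0.64 (SE 0.15), with an unadjusted p = 0.004 and an adjusted p = 0.110 by limma across all genes. Psme2, chosen after its values were seen, was at 31.7, 42.9 and 32.5 in HKO, against 23.0, 30.6 and 25.4 in flox (log2 0.42, adjusted p = 0.277). In both genes every HKO liver lay above every flox liver. Psme3, the nuclear relative that forms a ring of its own, ran the other way, at 14.2, 16.3 and 16.6 in HKO, against 25.0, 22.7 and 19.7 in flox. It was the lowest member by log2 fold change (-0.48, SE 0.14, limma adjusted p = 0.159), and every HKO liver lay below every flox liver. Psme4, an activator that binds as a single chain, was at 21.97, 13.2 and 13.99 in HKO, against 17.3, 16.6 and 13.6 in flox. Psmf1, a core-binding regulator, was at 9.44, 11.97 and 11.6 in HKO, against 10.8, 9.82 and 9.17 in flox. Both overlapped. On chromosome 14, Psme1 (55578494 to 55581527) overlaps Emc9 (55581519 to 55585356, log2 0.21), on the opposite strand, only at their ends. No source used here states whether strand was used in counting.

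Of 25 listed interferon response genes, 23 were tested and 6 were called as higher in HKO livers by limma, where 0.268% of all genes were. All 23 were above 0 (median log2 1.08), where 48.0% of all genes were, and in 19 every HKO liver lay above every flox liver, where 12.8% of all genes did. Irf9, Irf1, Stat2 and Rsad2 overlapped, and Tap1 and Isg15 were under the filter, with Isg15 at 0 in every HKO liver. Ifit2, at a mean of 2.55 FPKM in HKO and 0.707 in flox, passed the filter of 1 FPKM only through its HKO values. The filter thus favoured its place in these counts. The called genes were Ifi44 (log2 2.51), Gbp3 (1.90), Ifit3 (1.52), Oasl2 (1.39), Rtp4 (1.37) and Irf7 (1.13). Leukocyte markers summed to 10.7 to 15.4 FPKM in HKO livers and 6.75 to 12.9 in flox livers, with 6 of 14 tested and none at 0 in every liver. Of the 6, 5 were above 0 and 0 were called. In 3 of them, Ly6c2 (log2 1.14, limma adjusted p = 0.167), Gzma (1.10, adjusted p = 0.0824) and Nkg7 (0.48, adjusted p = 0.156), every HKO liver lay above every flox liver. Their flox means were 0.506, 0.624 and 0.723 FPKM, so these 3 passed the filter of 1 FPKM only through their HKO values. The filter thus favours markers high in HKO, and these counts do not bear on whether leukocyte markers differ. Gzma and Nkg7 were chosen after their values were seen. Kupffer cell markers, all 7 tested, summed to 102 to 182 in HKO and 97.6 to 153 in flox (median log2 -0.08, 0 called, Vsig4 at -0.38). Endothelial markers, all 6 tested, summed to 19.9 to 26.3 in HKO and 18.7 to 25.4 in flox (median log2 0.06, 0 called, Stab2 at -0.40). Their part in the values of Psme1 and Psme2 was not tested, and in whole liver a change in cell number and in RNA per cell cannot be told apart.

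The inducible catalytic subunits were set against the constitutive ones they replace, as a log2 ratio within each liver. Psmb10 was at 40.9, 59.4 and 39.3 FPKM in HKO, against 23.2, 27.1 and 27.8 in flox. Its ratio to Psmb7 was -0.93, -0.92 and -1.58 in HKO livers, against -1.996, -1.94 and -1.86 in flox livers, without overlap. The means were -1.15 ± 0.38 in HKO and -1.93 ± 0.07 in flox (SD, n = 3 each), a difference of 0.79 (exact two-sided permutation p = 0.1, the smallest that 3 against 3 can give, and 0.3 adjusted over 3 pairs). Psmb8 was listed at 5.40, 0.147 and 2.09 in HKO, against 0.112, 0.0648 and 0.0962 in flox. These values rest on 384, 12 and 139 recovered reads in HKO and 8, 4 and 7 in flox. Every HKO liver lay above every flox liver (limma adjusted p = 0.273), but HKO liver 2 only narrowly and near 0. Psmb8 passed the filter of 1 FPKM only through HKO livers 1 and 3. Its ratio to Psmb5 differed by 1.09 (exact permutation p = 0.3), with HKO liver 2 within the flox range. That difference was 0.57 without HKO liver 1 and 1.67 without HKO liver 2, and 2.63 and 0.23 with pseudocounts of 0.1 and 5, so its size rests on those choices. The listed gene length of Psmb8, 4443 bases, exceeds its 3260-base span. Psmb9 was at 0.0181 to 0.318 FPKM in all livers and was not tested by limma. Its ratio to Psmb6 rests on the uneven Psmb6 values and gave no usable difference (0.09, exact permutation p = 0.9).

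**Figure D4:**
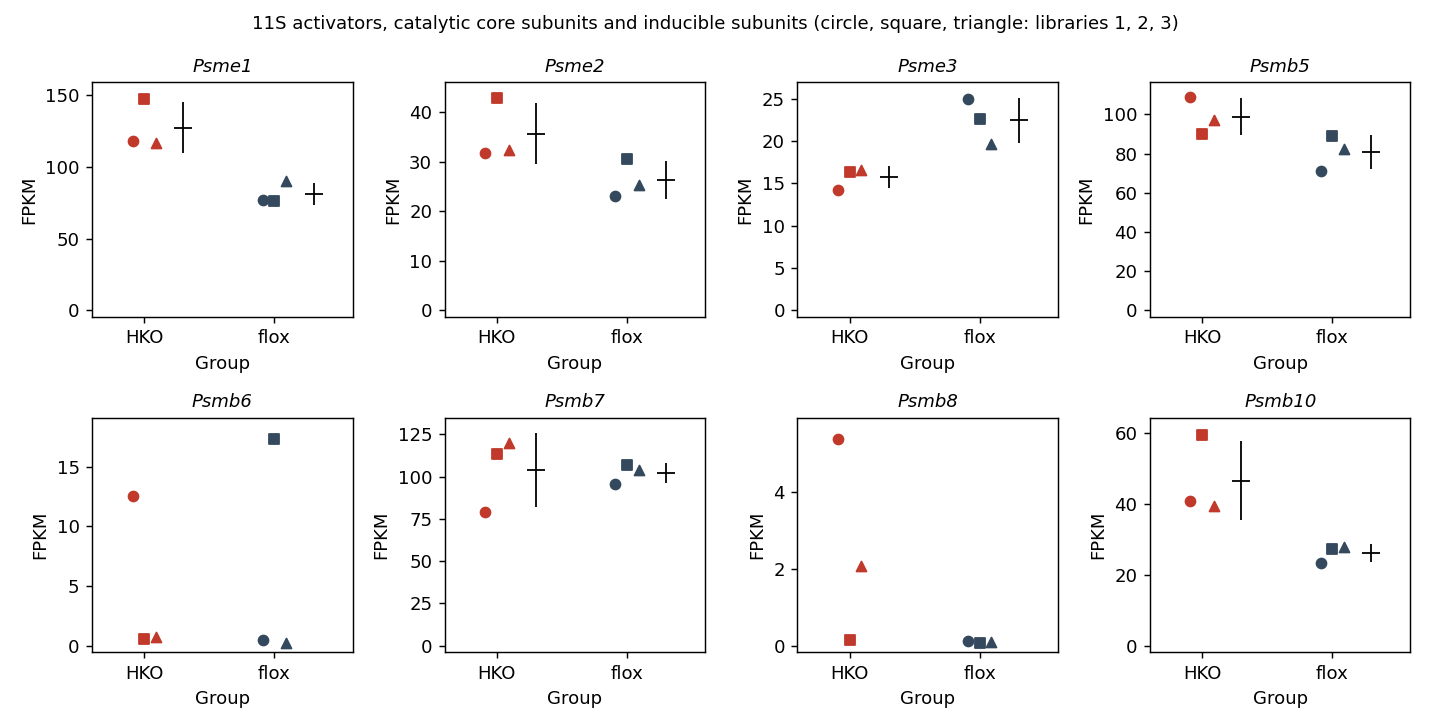
FPKM of the activators Psme1, Psme2 and Psme3, the catalytic subunits Psmb5, Psmb6 and Psmb7 and the inducible Psmb8 and Psmb10 in each liver, HKO left and flox right, with mean ± SD as a black cross where shown (n = 3 each). Psme1, Psme2 and Psmb10 are higher and Psme3 lower in every HKO liver than in every flox liver. Psmb5 and Psmb8 are also higher in every HKO liver, both by a narrow margin in HKO liver 2. Psmb7 overlaps, and Psmb6 has 1 high library in each group.

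Of 12 proteasome partners found in the file and tested, 0 passed, with 6 above 0 and 6 below (median log2 -0.0005). Pomp, the chaperone that matures the core, was at 172, 171 and 150 FPKM in HKO, against 119, 121 and 117 in flox, without overlap (log2 0.46, SE 0.13, limma adjusted p = 0.151). Adrm1, a ubiquitin receptor of the base, was at 29.4, 52.2 and 52.6 in HKO, against 63.4, 56.1 and 54.8 in flox, with HKO liver 1 low. Every HKO liver lay below every flox liver for Adrm1 (log2 -0.41, SE 0.24, limma adjusted p = 0.414). Of the 12 partners, 3 had every HKO liver above every flox liver and 2 every HKO liver below, against 12.8% and 12.6% of all tested genes. Paaf1 was not analysed here. Of 10 tested shuttle and segregase genes 0 passed, 4 above 0 and 6 below (median -0.09). Ufd1, a cofactor of the segregase Vcp, was at 0.955 ± 0.772 FPKM in HKO and 2.55 ± 1.18 in flox (SD, n = 3 each). Its groups overlapped (log2 -0.89, limma adjusted p = 0.309). Ufd1 passed the filter of 1 FPKM only through its flox values, so the filter favoured its place among those below 0.

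The factors that regulate the subunit genes did not pass either. Nfe2l1 was at 13.3, 19.4 and 22.4 FPKM in HKO, against 34.1, 33.0 and 26.9 in flox, every HKO liver below every flox liver (log2 -0.76, SE 0.21, limma adjusted p = 0.140). Nfe2l2, the related antioxidant factor, was at 21.0, 17.7 and 17.8 in HKO, against 12.6, 13.0 and 15.6 in flox (log2 0.43, adjusted p = 0.192). Mafk, a partner of both, was higher in every HKO liver (log2 0.54, adjusted p = 0.128). Of the 5 tested NRF and small Maf genes 3 were above 0 (median log2 0.06).

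Members outside liver use were near or at 0. Psmb11, of thymus, was listed at 0 in all 6 livers. Psma8, of testis, was at 0.158 to 0.553 FPKM in HKO and 0.0619 to 0.438 in flox, and Psme2b at 0 in 5 livers and 0.0573 in flox liver 3. Psmc3ip, which matches the name pattern but encodes a meiotic factor, was at 0.251 to 0.494 in HKO and 0 to 0.748 in flox. Annotated spans of 13 members overlap another row, and in 6 of these the other row had a mean of at least 1 FPKM, so their reads may be shared. The pseudogenes Psmb5-ps and Psmb6-ps2 were listed at 0 in all livers, and Psmb7-ps2 at 0.156 FPKM in flox liver 2 and 0 elsewhere.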

How the data were processed

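Per the series text, the submitters aligned read pairs from poly(A)-selected liver RNA to GRCm38.p6 with HISAT2 2.0.5 and counted genes with featureCounts 1.5.0-p3. CASAVA and DESeq2 1.20.0 appear in the submitters' processing notes without a role. The deposited values are FPKM, 1 column a library, and gene length. Reads were recovered as whole multiples of FPKM times length (100% within 0.001, 14907384 to 17034754 per library).

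The members and gene lists were chosen with earlier results of these data known. limma 3.58.1 (trend, robust) in R 4.3.3 was fitted to log2(FPKM + 1) of every gene averaging at least 1 FPKM, HKO minus flox, with Benjamini-Hochberg adjustment at 0.05. The added 1 shrinks low genes. Values in every liver are given for catalytic subunits and, in each class, the members highest, lowest and largest in log2 fold change. Same-numbered libraries correlated at 0.15, -0.15 and -0.05 in deviations from their group means. With so few libraries this cannot settle whether numbers pair mice, and the main fit used no pairing. Python 3.11.15 and matplotlib 3.10.9 were used for summaries and figures.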

Additional observations from a re-analysis of the deposited data

How the results depend on the processing

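No member was called higher or lower under any of the 16 alternatives (the pseudocount, filter, scaling, moderation, replicate block, voom, and each library left out), and Alkbh5 passed in all of them (adjusted p 3.12e-05 to 0.00247). With the replicate block, 9 genes of all were called against 51 and 0 members. Of 656 member values under alternatives, 623 kept their direction and side of the threshold, and 33 changed sign. TPM gave class medians of 0.32 for the core and 0.27 for the base, quantile scaling 0.28 for the core, voom 0.35 for the core, 0.26 for the base and 0.21 for the activators, and no filter -0.0027 for the assembly factors. With a library left out, medians ranged from 0.24 to 0.29 for the core, 0.15 to 0.22 for the base, -0.05 to 0.05 for the lid, 0.12 to 0.40 for the assembly factors and 0.077 to 0.22 for the activators. TPM shifts the median of all genes to 0.05 and voom to 0.06. Without Psmb6, an alternative chosen after seeing the data, the core median was 0.25. The sign changes were in 11 members. TPM, voom and quantile scaling gave Psmd6 0.060, 0.058 and 0.032, Psmd8 0.053, 0.051 and 0.0001, and Psmd11 0.037, 0.035 and 0.006, and TPM and voom gave Psmd4 0.0043 and 0.0019. A pseudocount of 5 gave Psmb6 -0.065. With a library left out, values ranged from -0.96 to 1.29 for Psmb6, -0.11 to 0.19 for Psmb7, -0.20 to 0.15 for Psme4, -0.19 to 0.0034 for Psmg3, -0.25 to 0.12 for Psmc1, -0.20 to 0.10 for Psmd4, -0.13 to 0.071 for Psmd11, -0.0016 to 0.18 for Psmd13, -0.086 to 0.16 for Psmd3, -0.073 to 0.030 for Psmd6 and -0.095 to 0.063 for Psmd8, and the Psmb9 to Psmb6 ratio difference from -1.12 to 1.13. The cause was not tested. The lowest adjusted p of any member over all alternatives was 0.0989, for Psme1. Within groups of 3, a 2-sided exact test cannot go below 0.1.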
